A study of Homo sapiens with 6 samples.

Results

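The genes described here act in the unfolded protein response and in quality control of the endoplasmic reticulum (ER). They were chosen by name from the known biology of the ER, with earlier results of these data known. The list holds 36 genes: 7 sensors and activators, 14 folding factors, 11 degradation factors and 4 genes of the translocon and ER membrane. Of these, 35 were among the 17013 genes with values and all 35 passed the filter on low counts, while DERL3 was not analysed here. Messenger RNA was measured in Y79 cells, an established human retinoblastoma line that carries an amplified MYCN gene. The series text calls the 3 libraries of a group independent biological replicates. All 6 libraries came from cells transduced with a short hairpin RNA (shRNA) and are labelled as 1 batch. The control group (3 libraries) received a control shRNA and is labelled MYCN wild-type, and the other group (3 libraries) received an shRNA that targets MYCN, a growth-promoting transcription factor. The sources used here give neither the number of hairpins nor the time between transduction and harvest.

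Secreted and membrane proteins enter the ER through the SEC61 channel, are folded there by chaperones and by enzymes that form disulfide bonds, and are sent to the cytosol for degradation when they fail to fold. An excess of unfolded protein is sensed by ERN1 (the IRE1 kinase and RNase, which splices XBP1 mRNA), by ATF6 (released from the membrane by the proteases encoded by MBTPS1 and MBTPS2) and by the kinase PERK, encoded by EIF2AK3. Spliced XBP1 and cleaved ATF6 then activate chaperone and degradation genes, many of them through the ER stress response element (ERSE). Photoreceptor cells, the lineage that retinoblastoma cells resemble, make and fold large amounts of membrane protein.

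The ERSE sequences are shown first because they tie these genes to the sensors named above and because the genes that carry them did not move together. ERSE was searched as CCAAT and CCACG separated by 9 free bases, and ERSE-II as ATTGG and CCACG separated by 1, on both strands of promoter windows from RefSeq (GRCh38.p14) that run from 250 bases before to 50 bases after a gene start. A window was at hand for 33 of the 36 genes, all but PDIA3, DERL1 and DERL3. ERSE was found in 6 of these 33 genes (18.2%) against 25 of 27305 genes with a window (0.0916%), and ERSE-II in 3 of 33 (9.09%) against 19 of 27305 (0.0696%). The element was originally defined in promoters of ER chaperone genes, so these shares are background knowledge and not a finding. In each site below the motif is in capitals and the free bases are in lower case, written 5′ to 3′ on the strand that carries the motif.
CRELD2 (chr22:49918554-49918572, opposite strand to the gene): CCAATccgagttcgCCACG
XBP1 (chr22:28800603-28800621, same strand as the gene): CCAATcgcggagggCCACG
CALR (chr19:12938384-12938402, opposite strand): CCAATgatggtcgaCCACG
PDIA6 (chr2:10812853-10812871, same strand): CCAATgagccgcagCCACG
CANX (chr5:179698778-179698796, same strand): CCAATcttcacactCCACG
ERO1B (chr1:236282183-236282201, opposite strand): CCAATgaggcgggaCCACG
SDF2L1 (chr22:21642114-21642124, opposite strand): ATTGGtCCACG
HERPUD1 (chr16:56932025-56932035, same strand): ATTGGgCCACG
HYOU1 (chr11:119057274-119057284, opposite strand): ATTGGaCCACG
Distances are to RefSeq starts, which can differ from the gene spans of GENCODE 29 given further on. The site in CRELD2 begins 80 bases before the RefSeq start, and lies inside the GENCODE 29 span of the gene. That in XBP1 begins 52 bases before 1 of its RefSeq starts, that in PDIA6 86 bases before 1 of its own, and that in HERPUD1 117 bases before its start. CANX has several annotated starts, and its 1 site lies 9 to 189 bases before 3 of them. HYOU1 carries a second ERSE-II, 185 bases before its start, with the same letters.

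Both groups held libraries of similar depth, between 15490263 and 16078416 estimated counts. MYCN itself was lower in all 3 libraries with its hairpin, at 3046, 3128 and 2876 CPM (estimated counts relative to library size, scaled by TMM factors throughout) in the control libraries and 2413, 2284 and 2195 CPM with the MYCN shRNA. The log2 fold change of MYCN was -0.39 ± 0.043 (SE, n = 3 per group), and -0.21 with library sizes as the only scaling. All 8 photoreceptor-lineage markers were detected in every library, and they did not move one way. OTX2, NEUROD1 and RAX2 were lower in every MYCN shRNA library than in every control, while CRX, PDE6H, RCVRN, ARR3 and GNAT2 were higher. Their sum, most of it OTX2 and NEUROD1, was 1873 to 1972 CPM in controls and 1524 to 1571 CPM with the MYCN shRNA. Summed markers of pigment epithelium (4 of 5 genes in the table) measured 3.001 to 3.09 CPM in controls and 10.4 to 11.7 CPM with the MYCN shRNA, and those of fibroblasts and endothelium (4 of 5) 1.53 to 1.66 and 4.58 to 5.53 CPM. The leukocyte marker PTPRC stayed at or below 0.21 CPM in every library. Mueller glia markers (5 of 5) summed to 829 to 849 and 648 to 669.9 CPM, nearly all of it GLUL, an enzyme gene that many cells express, with RLBP1, AQP4 and GFAP at or below 0.13 CPM. No marker in the table was at 0 in all 6 libraries, and the part of these differences in the results below was not tested. In such bulk RNA, a change in the share of a cell type and a change in RNA per cell cannot be told apart.

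Among the 35 genes, folding factors were mostly higher with the MYCN shRNA, the sensor genes ERN1 and ATF6 were lower, and the lowest values belonged to the sensor gene ERN1 and the degradation gene HERPUD1. By edgeR's quasi-likelihood test, 17 genes rose and 9 fell at an adjusted p under 0.05, and 9 did not pass. That is 74.3% of the 35, next to 75.8% of all 12819 tested genes, so the share that changed was close to the background. In all tested genes 38.0% rose and 37.9% fell, against 48.6% and 25.7% of these 35. The libraries of the groups did not overlap for 28 of the 35 (80.0%), next to 76.8% of all tested genes. Most differences were small: 9 of 35 genes (25.7%) changed by at least 0.5 on the log2 scale and 3 (8.57%) by at least 2-fold, where 39.2% and 14.6% of all tested genes did.

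**Figure D1:**
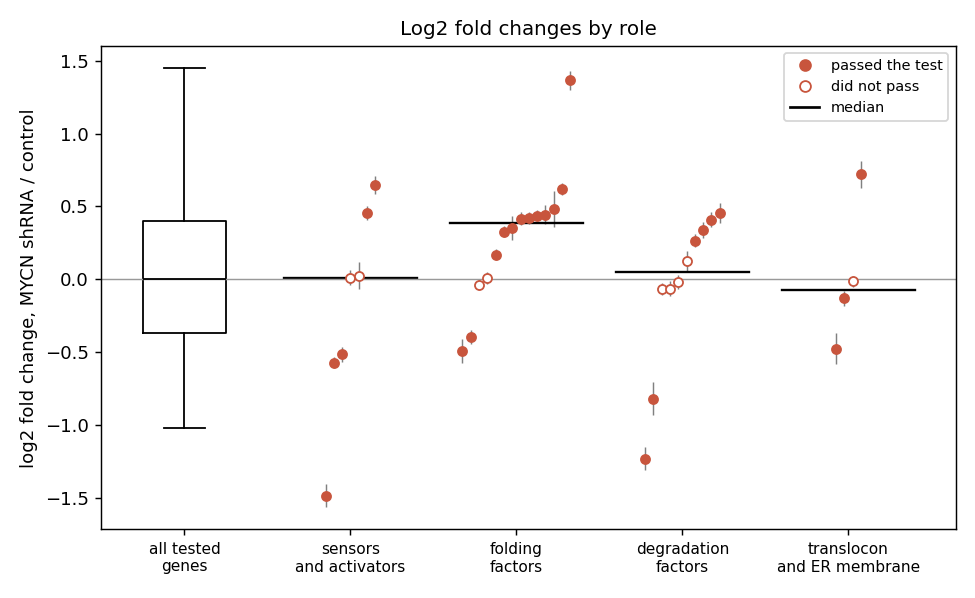
Log2 fold change (MYCN shRNA against control) of the 35 genes by role, 1 point per gene with its standard error; filled points passed the edgeR test and short lines are medians. The box shows all 12819 tested genes (quartiles, with whiskers from percentile 5 to percentile 95). Folding factors had a median of 0.38, sensors and activators 0.01, degradation factors 0.05 and translocon and ER membrane genes -0.07.

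The roles differed in their counts. Of 14 folding factors, 10 rose (71.4%) and 2 fell, and their log2 fold changes had a median of 0.38. Of 7 sensors and activators, 2 rose and 3 fell, with a median of 0.01. Of 10 tested degradation factors, 4 rose and 2 fell, with a median of 0.05. The median over all tested genes was 0.0046. With library sizes as the only scaling this median moved by 0.18, and the counts became 12 higher and 2 lower for folding factors, 4 and 3 for sensors and activators, and 8 and 2 for degradation factors. Under that scaling the 9 genes that had not passed were higher and passed, and among those that had passed SEC61B alone changed direction. Relative to the median of all genes, folding factors stood at 0.38 under both scalings. Scaling moves all genes by nearly the same amount, so this equality had to follow and is no check of the scaling. No test compared the roles with each other.

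**Figure D2:**
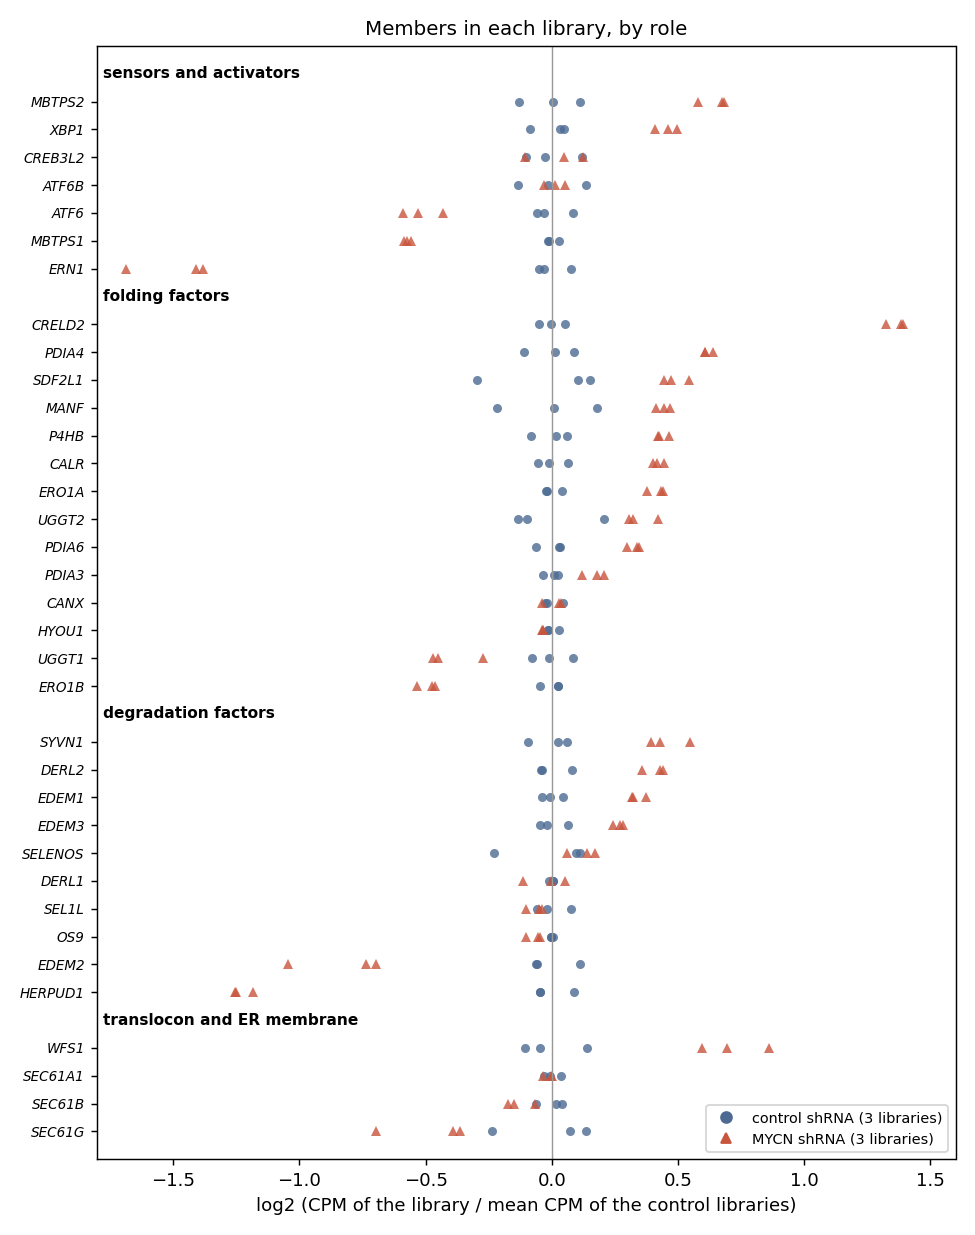
Each gene in each library, as the log2 ratio of its CPM to the mean CPM of the control libraries, sorted by log2 fold change within each role. Circles are the 3 control libraries and triangles the 3 MYCN shRNA libraries. ERN1 and HERPUD1 lie farthest to the left and CRELD2 farthest to the right. The groups overlap for ATF6B, CREB3L2, CANX, SEL1L, DERL1, SELENOS and SEC61A1.

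The stress sensor genes ERN1 and ATF6 fell, while XBP1, whose mRNA is the substrate of the ERN1 protein, rose. ERN1 (chromosome 17, 64039142 to 64130819, GENCODE 29 on GRCh38) measured 34.1, 31.7 and 31.3 CPM in control libraries and 12.4, 12.2 and 10.1 CPM with the MYCN shRNA. Every control library lay more than 2-fold above every MYCN shRNA library. Its log2 fold change was -1.48 ± 0.080 (SE, n = 3 per group; edgeR, adjusted p = 2.0e-20), lower than that of all but 1.72% of tested genes. XBP1 (chromosome 22, 28794555 to 28800597), which encodes the transcription factor made after splicing, measured 62.2, 61.7 and 56.8 CPM in controls and 80.03, 82.9 and 84.9 CPM with the MYCN shRNA. These groups did not overlap either, and the log2 fold change was 0.45 ± 0.050 (edgeR, adjusted p = 7.6e-11). XBP1 has 1 named pseudogene copy (XBP1P1), so its count may depend on how shared reads were assigned. Counts per gene do not separate spliced from unspliced XBP1, so the activity of ERN1 was not measured.

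ATF6 (chromosome 1, 161766294 to 161964070), the membrane-bound transcription factor, was lower in all 3 MYCN shRNA libraries. It measured 97.6, 95.96 and 105.9 CPM in controls and 66.3, 69.1 and 74.1 CPM with the MYCN shRNA, a log2 fold change of -0.52 ± 0.050 (edgeR, adjusted p = 2.1e-12). Its paralogue ATF6B, at 92.5 ± 8.66 and 93.3 ± 2.66 CPM (SD, n = 3), did not pass (0.01 on the log2 scale, 95% interval from -0.09 to 0.11). Some ATF6B exons overlap those of TNXB on the same strand.

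The proteases that cut ATF6 changed in opposite directions. MBTPS1 (chromosome 16, 84053761 to 84116906), which encodes the site-1 protease, measured 214, 208 and 209 CPM in controls and 141, 140.2 and 143 CPM with the MYCN shRNA, and fell by 0.57 ± 0.039 on the log2 scale (adjusted p = 5.1e-17). MBTPS2 (chromosome X, 21839636 to 21885424), the site-2 protease gene, measured 27.4, 30.1 and 32.4 CPM in controls and 48.1, 44.9 and 47.9 CPM with the MYCN shRNA, and rose by 0.65 ± 0.062 (adjusted p = 1.7e-12). Neither gene's groups overlapped, and exons of YY2 lie within MBTPS2 on the same strand. CREB3L2, a related membrane-bound transcription factor gene, measured 13.4 ± 1.07 and 13.6 ± 1.10 CPM and did not pass (log2 fold change 0.03, 95% interval -0.16 to 0.21).

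**Figure D3:**
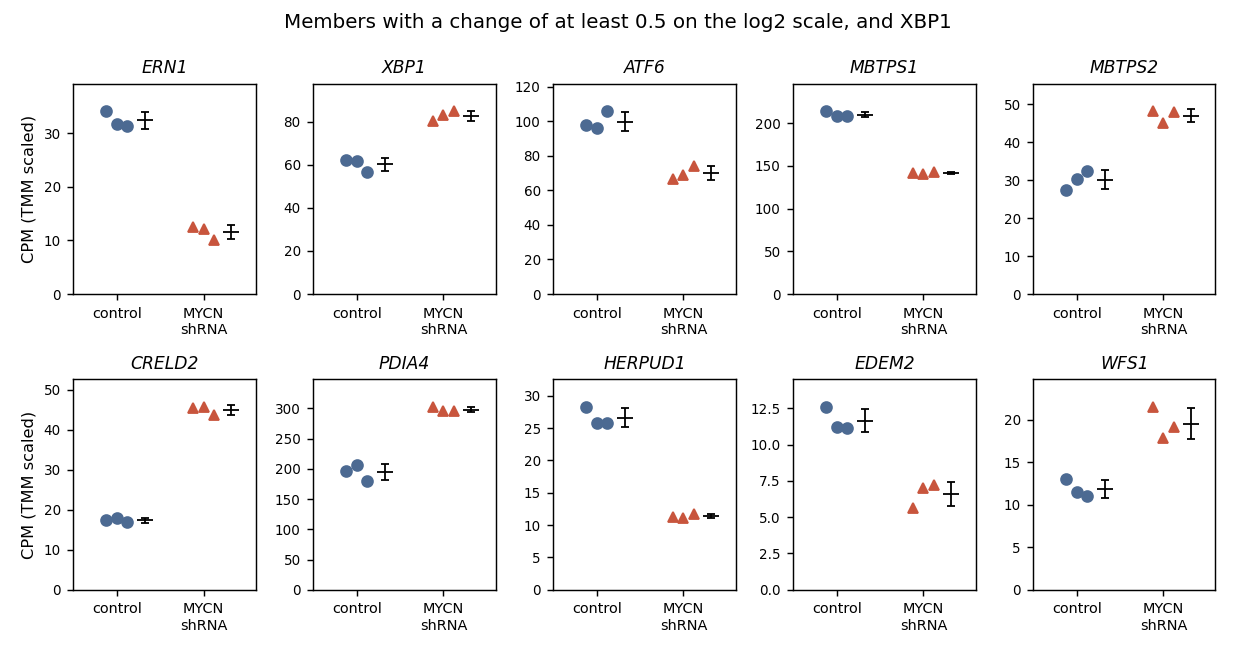
CPM (TMM scaled, linear axes from 0) in each library for the 9 genes that changed by at least 0.5 on the log2 scale and for XBP1. Circles are control and triangles MYCN shRNA libraries, with the mean and SD of 3 libraries beside them. In all 10 panels the groups do not overlap, with CRELD2 at 16.8 to 18.1 CPM against 43.6 to 45.8 CPM.

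Among the folding factors CRELD2 had the highest log2 fold change and ERO1B the lowest (-0.49). CRELD2 (chromosome 22, 49918167 to 49927540), a secreted ER protein with disulfide isomerase activity, measured 17.4, 18.1 and 16.8 CPM in controls and 45.5, 45.8 and 43.6 CPM with the MYCN shRNA. The lowest MYCN shRNA library lay more than 2-fold above the highest control. It rose by 1.37 ± 0.066 on the log2 scale (edgeR, adjusted p = 4.0e-22), above 94.5% of tested genes. Its exons overlap those of ALG12 on the opposite strand, and reads there cannot be assigned without strand.

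The 4 protein disulfide isomerase genes among the folding factors rose; they encode enzymes that form and rearrange disulfide bonds. Relatives outside the 36 genes, named after their values were seen, did not all follow: TXNDC5 (-1.42), TMX1 (-1.02) and PDIA5 (-0.17, but 0.02 with library sizes alone) fell, and TXNDC11 (0.41) and TMX3 (0.30) rose. PDIA4 (chromosome 7, 149003062 to 149028641) measured 196, 207 and 179.9 CPM in controls and 302, 295 and 296 CPM with the MYCN shRNA, a log2 fold change of 0.62 ± 0.042 (adjusted p = 3.9e-17). P4HB, the founding member of the family, rose by 0.44 from 421 ± 21.1 to 571 ± 9.31 CPM. PDIA6 rose by 0.33 and PDIA3, which works with the lectin chaperones, by 0.17. PDIA3 has 2 named processed copies in the genome, so its count depends on how shared reads were assigned. Control and MYCN shRNA libraries did not overlap for PDIA4, P4HB, PDIA6 or PDIA3.

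The oxidases that recharge the isomerases split. ERO1A rose by 0.42 ± 0.043 (92.6 ± 2.26 to 123.6 ± 2.88 CPM; adjusted p = 1.8e-11) and its paralogue ERO1B fell by 0.49 ± 0.080 (20.3 ± 0.572 to 14.4 ± 0.379 CPM; adjusted p = 6.3e-07). The same held for the UGGT enzymes, which test the fold of glycoproteins: UGGT1 fell by 0.40 ± 0.048 (186 ± 10.6 to 141 ± 10.9 CPM) while UGGT2, far lower in counts, rose by 0.35 ± 0.084 (16.2 ± 2.16 to 20.7 ± 0.900 CPM; adjusted p = 2.6e-04).

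Of the lectin chaperones that hold glycoproteins during folding, the soluble one rose and the membrane one did not pass the test. CALR, encoding calreticulin, measured 455, 480.1 and 442 CPM in controls and 606, 613 and 625 CPM with the MYCN shRNA, a rise of 0.42 ± 0.039 (adjusted p = 8.1e-13). CANX, encoding calnexin, stood at 726 ± 19.4 and 731 ± 20.7 CPM (log2 fold change 0.01, 95% interval -0.07 to 0.09).

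MANF, a small ER-resident factor that is also secreted, rose by 0.44 ± 0.066, and SDF2L1, a cofactor of the chaperone BiP, by 0.48 ± 0.123 from 6.21 ± 0.999 to 8.70 ± 0.311 CPM (adjusted p = 5.7e-04). HYOU1, an ER chaperone that exchanges the nucleotide of BiP, measured 154.2, 158.6 and 154.0 CPM in controls and 151.4, 152.1 and 151.8 CPM with the MYCN shRNA. Those libraries did not overlap, yet the difference was small and did not pass (log2 fold change -0.04, 95% interval -0.11 to 0.04, adjusted p = 0.410).

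In the degradation branch, HERPUD1 and EDEM2 fell while SYVN1, DERL2, EDEM1 and EDEM3 rose. HERPUD1 (chromosome 16, 56932048 to 56944863), a membrane scaffold of the degradation complex, measured 28.3, 25.7 and 25.8 CPM in controls and 11.2, 11.2 and 11.7 CPM with the MYCN shRNA. Each control library was more than 2-fold above each MYCN shRNA library. The log2 fold change of -1.23 ± 0.080 (edgeR, adjusted p = 1.3e-17) was below that of all but 3.12% of tested genes.

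The EDEM genes encode proteins that trim mannose from glycoproteins bound for degradation. EDEM2 (chromosome 20, 35115357 to 35147364) measured 12.6, 11.2 and 11.2 CPM in controls and 5.65, 6.997 and 7.20 CPM with the MYCN shRNA, and fell by 0.82 ± 0.114 (adjusted p = 2.3e-08). EDEM1 rose by 0.34 ± 0.057 (34.95 ± 0.995 to 44.2 ± 0.911 CPM) and EDEM3 by 0.27 ± 0.042 (114 ± 4.54 to 137 ± 1.87 CPM). So 2 of the 3 EDEM transcripts were higher and 1 was lower, with no overlap between groups for any of them.

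SYVN1, the ubiquitin ligase HRD1 at the centre of the complex, rose by 0.46 ± 0.069 (22.04 ± 1.23 to 30.3 ± 1.69 CPM; adjusted p = 1.6e-07), although some of its exons overlap FAU and MRPL49. DERL2, a channel protein of the same complex, rose by 0.41 ± 0.052 (51.1 ± 2.51 to 67.9 ± 2.06 CPM). SEL1L, the partner of SYVN1 (-0.06), the lectin gene OS9 (-0.07), DERL1 (-0.02) and SELENOS, a selenoprotein that binds the Derlins (0.13), did not pass the test. With TMM scaling, SELENOS passed without control replicate 2 (adjusted p = 0.0419), without control replicate 3 (0.0300), and it passed with upper quartile scaling (0.0375).

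Of the SEC61 subunit genes among the 36, SEC61G and SEC61B fell and SEC61A1 did not pass the test, while WFS1 rose. Outside the 36 genes, and named after their values were seen, the other alpha subunit gene SEC61A2 (0.53) and TRAM1, which encodes a translocating chain protein (1.09), rose. SEC61A1, the channel subunit, measured 199.8 ± 4.53 and 198 ± 2.83 CPM (log2 fold change -0.01, 95% interval -0.09 to 0.06). SEC61G, the gamma subunit, fell by 0.47 ± 0.105, from 30.8, 38.2 and 39.9 CPM in controls to 27.7, 22.4 and 28.2 CPM with the MYCN shRNA (adjusted p = 0.00133). The beta subunit gene SEC61B stood at -0.13 on the log2 scale (edgeR, adjusted p = 0.0238), a call that ended with DESeq2 (adjusted p = 0.0596), with upper quartile scaling (0.110) and without control replicate 2 (0.0795), MYCN shRNA replicate 2 (0.0851) or MYCN shRNA replicate 3 (0.104). With library sizes alone its value was 0.05. WFS1 (chromosome 4, 6269849 to 6303265), an ER membrane protein of calcium handling and stress control that is mutated in Wolfram syndrome, measured 13.1, 11.5 and 11.02 CPM in controls and 21.5, 17.9 and 19.2 CPM with the MYCN shRNA. Its groups were separate and it rose by 0.72 ± 0.091 (adjusted p = 2.6e-09).

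Related genes can also be compared without any scaling between libraries, by the ratio of their counts within a library. In 12 of 13 pairs the ratio did not overlap between groups, and each of the 12 had the smallest p that 3 against 3 libraries allow (two-sided exact permutation test, p = 0.1; 0.108 adjusted over the 13 pairs), so none could pass 0.05. Single genes already did not overlap in 76.8% of those tested. Other gene pairs were not examined, so the count of 12 cannot be read as particular to these pairs. The ERN1 to XBP1 ratio was 0.549, 0.515 and 0.551 in controls and 0.155, 0.147 and 0.119 with the MYCN shRNA, which is a difference of -1.95 on the log2 scale. MBTPS1 counts were 7.81, 6.90 and 6.43 times those of MBTPS2 in controls and 2.94, 3.12 and 2.98 times with the MYCN shRNA. Both ratios were lower in every MYCN shRNA library than in every control library.

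For ERO1A over ERO1B the ratio went from 4.43, 4.43 and 4.85 to 8.25, 8.93 and 8.54, a difference of 0.91 on the log2 scale. EDEM1 over EDEM2 went from 2.76, 3.21 and 3.05 to 8, 6.23 and 6.07, a difference of 1.16. EDEM1 and EDEM3 kept overlapping ratios (0.314, 0.319 and 0.285 against 0.325, 0.322 and 0.317; exact permutation p = 0.2). UGGT1 over UGGT2 (-0.75), ATF6 over ATF6B (-0.53), SEL1L over SYVN1 (-0.52), DERL1 over DERL2 (-0.43), CALR over CANX (0.41), SEC61A1 over SEC61G (0.46) and SEC61A1 over SEC61B (0.12) made up the rest. Pairs that share a gene are not independent.

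**Figure D4:**
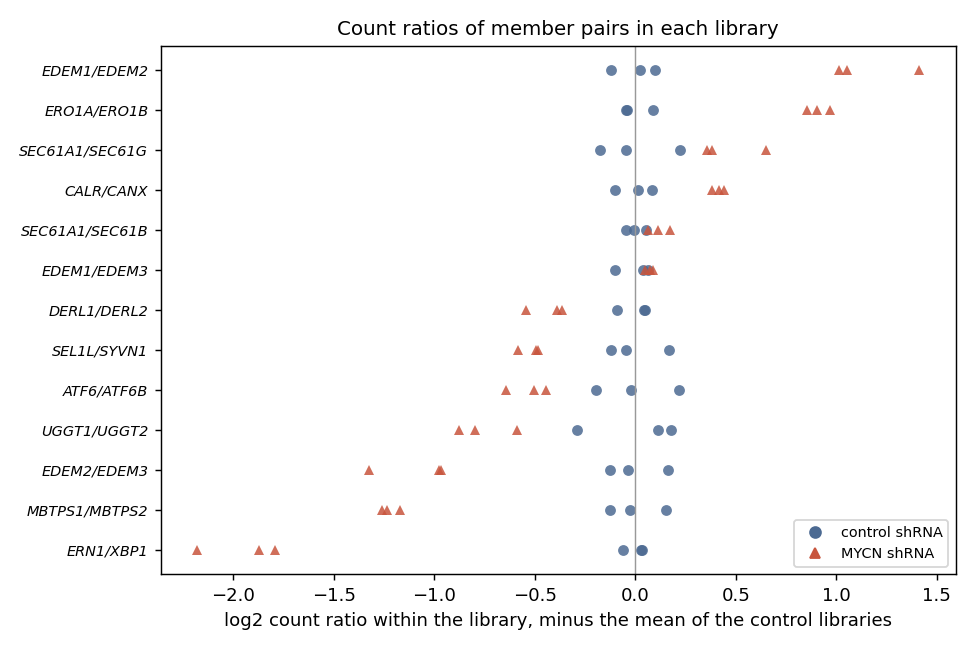
Log2 count ratio of 13 gene pairs within each library, minus the mean of the control libraries, with circles for control and triangles for MYCN shRNA libraries. EDEM1/EDEM3 is the pair whose groups overlap, ERN1/XBP1 lies farthest to the left (-1.95) and EDEM1/EDEM2 farthest to the right (1.16).

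On the scale of CPM per kilobase of the principal GENCODE 29 transcript, the 4 highest of these genes were folding factors. In controls CALR stood at 241 CPM per kilobase, PDIA6 at 223.5, CANX at 170.4 and P4HB at 162. Sensors and activators ranged from 1.81 (CREB3L2) to 48.5 (MBTPS1), with ERN1 at 4.11. Summed over their genes, the 14 folding factors went from 3193 ± 56.1 to 3808 ± 38.9 CPM (SD, n = 3). Their share of all counts, which is not scaled by TMM factors, went from between 0.294% and 0.306% to between 0.403% and 0.408%. The 7 sensors and activators together went from 539 ± 4.27 to 459 ± 6.67 CPM, and the 10 measured degradation factors from 529 ± 6.66 to 561 ± 9.76 CPM. As unscaled shares, sensors and activators fell only slightly, from between 0.0496% and 0.0512% to between 0.0486% and 0.0494%. Degradation factors rose from between 0.0495% and 0.0498% to between 0.0591% and 0.0609%. The size of the change in each sum therefore depends on the TMM factors. No p is given for these sums.

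The genes that carry ERSE or ERSE-II, printed above, changed in both directions. CRELD2 (1.37), SDF2L1 (0.48), XBP1 (0.45), CALR (0.42) and PDIA6 (0.33) rose, ERO1B (-0.49) and HERPUD1 (-1.23) fell, and CANX (0.01) and HYOU1 (-0.04) did not pass the test. Whole promoter windows are printed for CRELD2 and HERPUD1, the highest and the lowest of these genes, and for HYOU1, which holds the most matches and did not pass the test. Capitals mark the letters of ERSE or ERSE-II on either strand.
CRELD2 promoter (chr22:49918384-49918683, plus strand, 1.37): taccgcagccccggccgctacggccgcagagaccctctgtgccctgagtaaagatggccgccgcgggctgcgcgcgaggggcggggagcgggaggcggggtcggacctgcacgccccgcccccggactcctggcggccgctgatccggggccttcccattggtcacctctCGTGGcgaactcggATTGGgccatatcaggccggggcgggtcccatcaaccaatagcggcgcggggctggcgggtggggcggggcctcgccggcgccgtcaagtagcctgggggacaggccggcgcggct
HERPUD1 promoter (chr16:56931892-56932191, plus strand, -1.23): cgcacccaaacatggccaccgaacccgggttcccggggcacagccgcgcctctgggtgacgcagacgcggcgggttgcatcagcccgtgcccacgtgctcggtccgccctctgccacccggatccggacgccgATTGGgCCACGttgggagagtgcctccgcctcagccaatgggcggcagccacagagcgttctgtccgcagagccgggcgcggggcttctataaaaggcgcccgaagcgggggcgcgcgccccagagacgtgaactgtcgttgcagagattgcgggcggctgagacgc
HYOU1 promoter (chr11:119057156-119057455, minus strand, -0.04): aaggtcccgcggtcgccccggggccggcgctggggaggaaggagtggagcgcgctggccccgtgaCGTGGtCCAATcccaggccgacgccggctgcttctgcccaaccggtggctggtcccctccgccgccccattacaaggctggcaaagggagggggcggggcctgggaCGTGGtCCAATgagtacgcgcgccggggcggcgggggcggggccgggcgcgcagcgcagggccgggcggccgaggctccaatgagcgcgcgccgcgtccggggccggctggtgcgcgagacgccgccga
HYOU1 holds 2 ERSE-II matches and, overlapping one of them, the 8-base element TGACGTGG that spliced XBP1 and ATF6 bind, which occurs in 1 of the 33 genes (3.03%) and in 0.927% of all genes with a window. The E-box CACGTG, a motif of MYC proteins, was found in ATF6B, CANX, HERPUD1 and SELENOS, of which HERPUD1 changed. That is 12.1% of 33 genes, against 12.7% of tested genes and 8.77% of all genes with a window. Of the 1319 tested genes with an E-box 391 rose and 610 fell (median -0.10). Of all 12819 tested genes 4865 rose and 4857 fell. A match shows that the letters are present, not that a factor binds.

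The CRELD2 site is shared with its neighbour. ALG12, which encodes a mannosyltransferase of N-glycan assembly and was singled out after its values were seen, starts on the other side of the same 19 bases, 134 bases from its own start. Its log2 fold change was -0.16 (edgeR, adjusted p = 0.0436) and 0.02 with library sizes alone, next to 1.37 and 1.55 for CRELD2. The ALG12 call also ended with DESeq2 (adjusted p = 0.121), limma-voom (0.0506), upper quartile scaling (0.130), the filter of 1 CPM in 3 libraries (0.0525), the 1.2-fold minimum (0.961) and without any 1 library other than control replicate 3 (0.0596 to 0.232). Among the 15 tested genes with ERSE, 8 rose and 3 fell (median 0.28), and among the 13 with ERSE-II, 4 rose and 6 fell (median -0.04). These counts include the genes whose sites are printed above. Without those, 4 of 9 genes with ERSE rose and 2 fell (median 0.09). For ERSE-II, 3 of 10 rose and 5 fell (median -0.11). In all tested genes 38.0% rose and 37.9% fell.

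Other genes of the pathway, taken from a list of 90, went both ways, with 33 of 87 tested higher (37.9%) and 38 lower (43.7%). With library sizes alone these counts were 45 and 23. BiP, encoded by HSPA5, which binds the sensors and unfolded proteins, rose by 0.53 ± 0.038, from 346 ± 8.32 to 500.2 ± 8.28 CPM (edgeR, adjusted p = 3.0e-16). HSP90B1, the ER form of HSP90, stood at 505 ± 5.08 and 506 ± 25.9 CPM (log2 fold change 0.002). Among 19 chaperones and oxidoreductases 8 rose and 8 fell, from CLGN, a calnexin relative (1.05), to CNPY2 (-1.43).

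In the PERK branch 2 of 8 genes rose and 4 fell. EIF2AK3, which encodes PERK, rose by 0.29 ± 0.073 (adjusted p = 4.1e-04), while its downstream transcription factor genes ATF4 (-0.86 ± 0.040, from 539.7 ± 23.3 to 298 ± 4.61 CPM) and DDIT3 (-0.62 ± 0.086) fell. PPP1R15B, a phosphatase subunit gene that reverses PERK signalling, had the highest value of the branch (0.49). Both tested relatives of CREB3L2 rose, CREB3 by 0.57 and CREB3L4 by 0.20.

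Of 22 further degradation genes 8 rose and 11 fell, with the ubiquitin-conjugating enzyme genes at both ends: UBE2J1 rose by 0.68 and UBE2G2 fell by 1.45, from 319 ± 11.3 to 117 ± 6.10 CPM. Of 21 translocation and signal processing genes, 6 rose and 10 fell, from SEC11A, a subunit of the signal peptidase (1.39, 79.5 ± 3.17 to 209 ± 2.59 CPM), to SSR3, a translocon-associated subunit (-1.05). Of 15 genes of N-glycan transfer and trimming, 7 rose and 5 fell, from MAGT1 (1.08) to DDOST (-0.74), both tied to the oligosaccharyltransferase. Apart from HSP90B1, ALG12 and PDIA5, the genes named from this list kept their direction and passed under each of the scalings tried. HSP90B1 passed with library sizes alone (0.18). In edgeR's test against a minimum change of 1.2-fold, EIF2AK3 (adjusted p = 0.250), TMX3 (0.136) and CREB3L4 (0.830) no longer passed. Nor did ALG12 and PDIA5.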

How the data were processed

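Poly(A)-selected RNA of 6 Y79 libraries was sequenced in paired ends, per the labels' protocols. The values are estimated counts per gene, deposited by the authors in 1 table, per the file headers; 12.5% to 12.8% of them are not whole. GRCh38 is the build in the submitters' processing notes. Which aligner, counter, annotation and strand option produced them is not given in the sources used here.

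Estimated counts were rounded, and 22 of 17035 rows without values were left out. Genes were kept by edgeR's filterByExpr (minimum count 10), which left 12819, scaled by TMM and tested with the quasi-likelihood test in edgeR 4.0.16 (R 4.3.3), with Benjamini-Hochberg adjustment over all of them. Standard errors were derived from the F statistic. The method was tested on simulated data. Alternatives used DESeq2 1.42.0, limma-voom 3.58.1, other scalings and filters, a minimum change of 1.2-fold, a replicate block and leaving out each library. The libraries differed from each other by more than counting noise within each group.

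The genes and lists were chosen with earlier results of these data known. Values per library were to be given for genes that passed and changed by at least 0.5 on the log2 scale; from each list of other pathway genes the highest and lowest called gene was named, with HSPA5, HSP90B1, EIF2AK3, ATF4 and DDIT3. Per-library values of other genes, and the pathway genes outside this rule (ALG12 among them), were chosen after the values were seen. Positions and lengths are from GENCODE 29, which shows exons of 10 of the 35 genes overlapping another measured gene. The summed level of the immune marker list is not reported here.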

Additional observations from a re-analysis of the deposited data

How the results depend on the processing

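Of the 35 genes, 21 kept their direction and call under all 15 alternatives, and these are 21 of the 26 that passed. Library size as the only scaling moved most: 26 genes were higher in place of 17, with 4 sensors and activators, 8 degradation factors and 2 translocon and ER membrane genes higher. It turned HYOU1 to 0.15, SEL1L to 0.12, OS9 to 0.12, DERL1 to 0.16, SEC61A1 to 0.17 and SEC61B to 0.053, and over all genes it gave 6597 higher and 3348 lower. Upper quartile scaling turned HYOU1 to 0.0020, DERL1 to 0.019 and SEC61A1 to 0.026. Without the low-count filter ATF6B was -0.0011 and CANX -0.0029. Under a minimum change of 1.2-fold, which is a stricter test, 5 of the 26 genes no longer passed. It left 2 degradation factors higher in place of 4, and 3292 higher and 3139 lower genes in all. The translocon and ER membrane genes that were lower numbered 1 in place of 2 under DESeq2, upper quartile scaling, library size alone and the 1.2-fold minimum. Leaving out 1 library at a time gave 1 to 2 of them, and turned genes near 0: ATF6B ranged from -0.054 to 0.081, CREB3L2 from -0.025 to 0.090, CANX from -0.0064 to 0.034, DERL1 from -0.056 to 0.025 and SEC61A1 from -0.031 to 0.0021. The cause was not tested for any of these. With the replicate number as a block, 17 genes were higher and 9 lower, as without it, and no call among the 35 changed. Same-numbered libraries correlated in their deviations at 0.120, 0.104 and 0.0260. Each MYCN shRNA library correlated best with the control of its own number. Control replicate 3, however, correlated best with MYCN shRNA replicate 2 (0.0401). The numbers were not taken as pairs in the main fit, and whether they mark pairs was not tested. Depth limits the rarest genes: SDF2L1 rests on 73 to 152 counts per library.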
